A study of Homo sapiens with 2 samples.

Results

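The genes described here are 43 regulators of apoptosis, chosen by name from the BCL2 family, the caspases, the inhibitor of apoptosis (IAP) family, the death receptor pathway and the proteins that act downstream of them. A value was listed for 41 of the 43 in a table of 12353 genes, and BIRC3 and TNFRSF10A, which had none, are not analysed here. The cells were BJ, an established line of human skin fibroblasts, left untreated and grown in medium with 10% serum, and their nascent RNA was read out by global run-on sequencing (GRO-seq). The series holds 1 group of 2 libraries from biological replicates, called library a and library b after the columns of the table. In GRO-seq, engaged RNA polymerases in isolated nuclei go on for a short time with a brominated nucleotide, here for 5 min at 30 °C, and the tagged RNA is sequenced, so the read density over a gene reports the polymerase transcribing it and not the amount of mature mRNA or protein. No source used here states the gene length behind the values, and levels of different genes depend on it. Values are FPKM, the fragments per kilobase of gene scaled to library size, given for each library or as mean ± SD over the 2 libraries (n = 2).

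In the intrinsic pathway of apoptosis, the effector proteins BAX and BAK1 open the outer mitochondrial membrane. Pro-survival BCL2 proteins hold them back, and BH3-only proteins, named for the short domain they share with the rest of the family, relieve that restraint or activate the effectors. Cytochrome c released through the pores assembles with APAF1 into the apoptosome, which activates caspase-9, and caspases are in turn restrained by IAP proteins. In the extrinsic pathway, death receptors recruit FADD and caspase-8 at the plasma membrane, where CFLAR can limit the activation of caspase-8. The balance between the sides sets how readily a cell dies after stress.

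Sequences before the start sites of members from both ends of the range of levels are shown first. Of the 41 members, 35 had at least 1 annotated start in the RefSeq promoter table (GRCh38.p14). The other 6 are MCL1, BCL2L2, TNFRSF10B, TRADD, DFFB and DAP. Among the 18 with a single start, BAX and FADD had the highest mean FPKM and BCL2L11 and BCL2 the lowest. The 250 bases before each start are printed 5′ to 3′ on the strand of the gene, with capitals marking every match, on either strand, to 6 motifs: the E-box CACGTG, the GC box GGGCGG, the pentamer CCAAT bound by NF-Y, the TATA box TATAAA, the core GCATGCGC of the NRF1 site and the ETS site CCGGAAG. The windows are chr19:48954625-48954874 on the plus strand for BAX, chr11:70203046-70203295 on the plus strand for FADD, chr2:111120664-111120913 on the plus strand for BCL2L11 and chr18:63319770-63320019 on the minus strand for BCL2.
BAX: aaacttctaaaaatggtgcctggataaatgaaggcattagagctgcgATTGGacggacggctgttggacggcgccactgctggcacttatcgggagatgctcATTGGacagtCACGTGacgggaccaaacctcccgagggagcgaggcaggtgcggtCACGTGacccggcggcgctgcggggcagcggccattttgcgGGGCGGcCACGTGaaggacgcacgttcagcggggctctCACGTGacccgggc
FADD: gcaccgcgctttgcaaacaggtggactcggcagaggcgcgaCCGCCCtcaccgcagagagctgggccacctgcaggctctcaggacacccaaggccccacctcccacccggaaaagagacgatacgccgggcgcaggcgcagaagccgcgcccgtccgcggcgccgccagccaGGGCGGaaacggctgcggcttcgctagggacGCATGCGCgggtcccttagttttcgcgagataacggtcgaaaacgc
BCL2L11: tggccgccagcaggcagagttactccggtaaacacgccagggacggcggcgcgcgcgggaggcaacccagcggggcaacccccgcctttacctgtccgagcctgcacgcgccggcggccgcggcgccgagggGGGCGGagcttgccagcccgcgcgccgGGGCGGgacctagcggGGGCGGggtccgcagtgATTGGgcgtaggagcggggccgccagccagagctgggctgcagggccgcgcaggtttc
BCL2: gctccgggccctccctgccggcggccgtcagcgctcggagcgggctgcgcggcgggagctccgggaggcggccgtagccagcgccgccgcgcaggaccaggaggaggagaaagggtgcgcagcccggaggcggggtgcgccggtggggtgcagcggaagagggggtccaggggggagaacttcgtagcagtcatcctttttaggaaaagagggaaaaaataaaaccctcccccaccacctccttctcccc

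The BAX window held 4 copies of CACGTG, whose first bases lay 138, 93, 45 and 14 bases before the start. Of 14536 windows of genes with a value, 1197 (8.23%) held the motif and 4 (0.0275%) held at least 4 copies. The 6 motifs were picked after these 4 sequences had been read, so the matches are descriptions. The FADD window held GCATGCGC with its first base 46 bases before the start, and the BCL2L11 window held 3 GC boxes. None of the 6 motifs occurred in the BCL2 window.

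Over all 63 windows of the 35 members, each motif was counted beside all 14536 windows. GGGCGG was in 40 of the members' windows (63.5%, against 62.7% of all), CCAAT in 23 (36.5%, against 33.0%) and CACGTG in 5 (7.94%, against 8.23%). CCGGAAG was in 7 (11.1%, against 14.0%) and TATAAA in 2 (3.17%, against 6.06%). Several windows can belong to 1 gene and share bases, so they are not independent. The median GC content was 64.4% in the members' windows and 64.4% in all windows. GCATGCGC was in 6 member windows (9.52%, against 4.11% of all), from 5 genes: AIFM1, BIRC6, CYCS, FADD and PDCD4. The windows of BIRC6 share the same match, and the FADD sequence was read before the motifs were picked. CYCS encodes cytochrome c, and AIFM1 encodes a flavoprotein of the space between the mitochondrial membranes. NRF1 is a transcription factor first found through its site before the rat cytochrome c gene. The stretches around the match in the 4 genes not shown above are printed with the match in capitals, from chrX:130165906-130165933 on the minus strand (AIFM1), chr2:32356967-32356994 on the plus strand (BIRC6), chr7:25125412-25125439 on the minus strand (CYCS) and chr10:110871734-110871761 on the plus strand (PDCD4). In BIRC6 the match is on the other strand and reads GCGCATGC. In PDCD4 a match on each strand overlaps the other, and the capitals mark both.
AIFM1: gccagctagtGCATGCGCaaatcctctc
BIRC6: gagccctcccGCGCATGCtccacccgcc
CYCS: atgctcgccaGCATGCGCgcgcaggtcc
PDCD4: agccacatGCGCATGCGCcctcccgcgc

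Most fibroblast markers were above the median of all genes. All 9 had values, with a median FPKM of 66.3 and COL1A1 highest at 649. Of these, 8 exceeded the median gene, and DCN, at 7.34, did not. None of 4 endothelial and none of 4 leukocyte markers had a value. CDH1, at 1.49, was the only 1 of 5 keratinocyte markers with a value. PMEL (22.4) and MLANA (4.53) were the only 2 of 4 melanocyte markers. PMEL stood about level with the fibroblast marker LUM (22.8). The libraries ranked all genes with a Spearman rho of 0.986 and the 41 members with a rho of 0.993. These are correlations across genes, which are not independent replicates. Read depth is unknown, so no counting interval is given. With 1 group no test between conditions was possible, and an exact sign-flip test of 2 libraries cannot go below p = 0.5.

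The apoptosis regulators had a median FPKM of 15.3, against 11.7 over all genes in the table. Of the 41, 25 (61%) had a mean FPKM above the median of all genes, where 50% of all genes lie by construction, and 15 (36.6%) were in the upper quartile, against 25% of all genes. Among the 30 members whose span overlaps no other gene with a value, 16 were above the median of all genes, a share near that of all genes. Overlapped genes were removed from the members only and not from all genes, so the shares are not filtered alike. In the lower quartile were 7 members (17.1%), against 25% of all genes: DFFB, CASP8, BAK1, CASP9, BMF, BCL2L11 and BCL2. The highest member, MCL1, exceeded the lowest, BCL2, 115-fold in mean FPKM. The members lie on 20 chromosomes. Among protein-coding genes, BCL2L13 and BID are direct neighbours on chromosome 22 with mean FPKM of 39.0 and 11.4, and only CASP10 lies between CFLAR (24.3) and CASP8 (6.13) on chromosome 2.

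**Figure D1:**
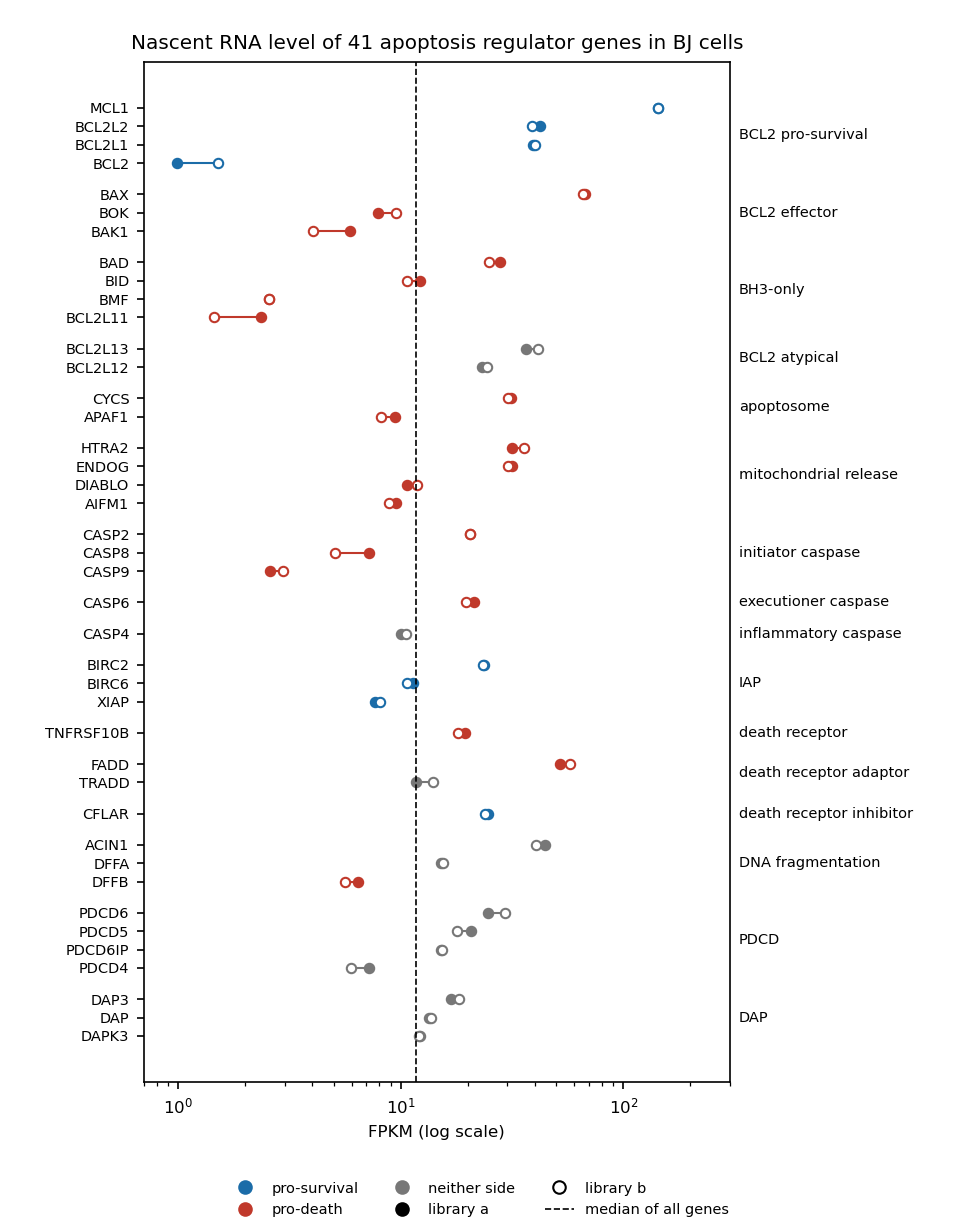
FPKM of the 41 members in library a (filled) and library b (open) on a log axis, grouped by role and coloured by side, with the median of all genes as a dashed line. MCL1 lies far to the right at 143 in both libraries, where the points coincide, and BCL2 at the far left at 0.980 and 1.51.

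The pro-survival BCL2 genes differed more among themselves than any other role. MCL1, whose protein is known for its short life and binds BAK1 and some of the BH3-only proteins, stood at 143 FPKM in both libraries, at percentile 98.6 of all genes. BCL2L2, which encodes BCL-W, had 42.2 and 38.6 FPKM in libraries a and b, and BCL2L1, which encodes BCL-XL, had 39.2 and 40.1. The ranges of BCL2L2 and BCL2L1 overlapped, so their order was not resolved. The annotated span of BCL2L2 is shared with the read-through gene BCL2L2-PABPN1, which had its own mean FPKM of 7.54, and reads from the shared part cannot be assigned to either gene. BCL2 itself, the founding member, stood at 0.980 and 1.51 FPKM in libraries a and b, at percentile 1.04. It was the lowest of all 41 members, and its range overlapped only that of BCL2L11. MCL1 held 63.4% and 64.1% of the summed FPKM of these 4 genes in libraries a and b.

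Both effector genes of the mitochondrial pore were measured, at very different levels. BAX had 67.1 and 65.7 FPKM in libraries a and b, which made it the second highest member, at percentile 95.6. BAK1 had 5.88 and 4.02, at percentile 18.3. The value of BAK1 over BAX was a log2 ratio of -3.74 ± 0.359, that is, BAX exceeded BAK1 13.4-fold. BOK, a less studied relative of both, lay between them at 7.86 and 9.50 in libraries a and b.

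The 4 BH3-only members also spread widely. BAD, whose protein is held inactive by phosphorylation under growth factor signalling, stood highest of these 4 at 27.8 and 24.9 FPKM in libraries a and b. It overlaps GPR137 on the opposite strand, which had a mean FPKM of 47.8, and no source used here says whether reads were counted by strand. BID, which caspase-8 cleaves to connect the extrinsic to the intrinsic pathway, had 12.1 and 10.6, close to the median gene. BMF was at 2.55 and 2.54, and BCL2L11, which encodes BIM, was at 2.36 and 1.44. The last 2 thus lay at percentiles 6.02 and 3.17 of all genes, beside BCL2 at the foot of the order. The less typical family members BCL2L13 (39.0 ± 3.50), a mitochondrial outer membrane protein, and BCL2L12 (23.8 ± 0.742) were in the upper quartile. BCL2L12 overlaps IRF3, which had a mean FPKM of 32.8. In all, 11 of the 41 members share part of their span with another gene that has a value. CASP6, PDCD4 and DAP3 are among them, beside those named with their partners.

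The genes CYCS, APAF1, HTRA2, ENDOG, DIABLO and AIFM1, whose proteins leave the mitochondria or form the apoptosome, ran from 8.76 to 33.7 in mean FPKM. CYCS, the gene for cytochrome c, had 31.2 and 30.2 FPKM in libraries a and b. RefSeq names 45 copies of CYCS as pseudogenes, so reads that map to several places could have been split and its value is uncertain. APAF1, the scaffold of the apoptosome, had 9.38 and 8.13, so that CYCS exceeded it 3.49-fold. HTRA2, a serine protease that binds IAP proteins once released, had 31.4 and 35.9, and ENDOG, a nuclease, had 31.5 and 30.3. The ranges of HTRA2, ENDOG and CYCS overlapped in the order, HTRA2 with ENDOG and ENDOG with CYCS. HTRA2 shares its span with AUP1 (40.7) and LOXL3 (36.9), and ENDOG with SPOUT1 (17.9), all on the opposite strand. DIABLO, which encodes the IAP antagonist also called SMAC, was lower at 10.7 and 11.8, and AIFM1 at 9.48 and 8.84. DIABLO overlaps B3GNT4, which had a mean FPKM of 22.0.

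The caspase genes among the members ran from 2.76 to 20.5 in mean FPKM. CASP6, an executioner, had 21.3 and 19.7 FPKM in libraries a and b, and CASP2, an initiator, had 20.3 and 20.5. The initiators of the 2 main pathways were lower. CASP8 stood at 7.21 and 5.04 in libraries a and b, and CASP9 at 2.57 and 2.95. CASP9 was at percentile 7.11 of all genes and below every other caspase among the members. Its 2 promoter windows, which can share bases, each held 8 copies of GGGCGG, a number reached in 0.977% of all windows. They are named because their counts were the highest of the 63 member windows. Their GC content was 71.6% and 77.6%, against a median of 64.4% in all windows. A link to the level of CASP9 was not tested. CASP4, which acts in inflammatory cell death, had 9.96 and 10.5.

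Among the 3 IAP genes that are members, BIRC2 was highest. BIRC2, which encodes cIAP1, a ubiquitin ligase of TNF receptor signalling, had 23.6 and 23.3 FPKM in libraries a and b. BIRC6, which encodes a giant ubiquitin ligase, had 11.3 and 10.7, and XIAP, a direct inhibitor of caspases, had 7.67 and 8.04. The 3 ranges did not overlap. BIRC3 is the direct neighbour of BIRC2 on chromosome 11.

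In the death receptor pathway the adaptor stood far above the caspase it recruits. FADD had 52.1 and 57.3 FPKM in libraries a and b, below MCL1 and BAX and above all other members. The inhibitor CFLAR had 24.7 and 23.9, and the receptor gene TNFRSF10B, which encodes the TRAIL receptor DR5, had 19.5 and 18.0. TNFRSF10B overlaps RHOBTB2, which had a mean FPKM of 13.9. TRADD, the adaptor of TNF receptor 1, had 11.7 and 13.9, around the median gene. Thus CASP8 was the lowest measured gene of this pathway among the members, with a range that did not overlap those of the other 4.

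Genes that act on chromatin at the end of apoptosis and the programmed cell death (PDCD) and death-associated protein (DAP) genes were mostly above the median gene. ACIN1, which also belongs to the splicing machinery, was highest at 42.4 ± 2.80, and overlaps C14orf119 (52.5) on the opposite strand. DFFA, the inhibitor and chaperone of the nuclease DFFB, had 15.3 ± 0.170, against 6.03 ± 0.566 for DFFB. PDCD6 (27.0 ± 3.30), a calcium-binding protein, and its partner PDCD6IP (15.2 ± 0.163), also called ALIX, were above the median gene, as was PDCD5 (19.3 ± 1.91). PDCD4, an inhibitor of translation initiation, was below it at 6.57 ± 0.841, as was DFFB. DAP3, a mitochondrial ribosomal protein, stood at 17.5 ± 0.933, DAP at 13.5 ± 0.240 and the kinase gene DAPK3 at 12.2 ± 0.0849.

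Of the 40 pairs of members next to each other in the order of mean FPKM, the 2-library ranges overlapped in 25 and did not in 15. At the top, the ranges of MCL1, BAX, FADD and ACIN1 did not overlap each other, but that of ACIN1 overlapped that of BCL2L2. At the foot, BAK1, CASP9, BMF and BCL2L11 were likewise separate, although CASP9 and BMF were only just so, at 2.57 and 2.55 in their nearest libraries.

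The contrast of pro-survival against pro-death genes was drawn over 8 and 20 measured members, leaving aside 13 whose role is mixed or less settled. Of these 13, 11 (84.6%) were above the median of all genes. The share was 62.5% for the pro-survival genes, 45% for the pro-death genes and 50% for all genes. Roles were chosen with earlier results of these data known. Pro-survival genes had a median FPKM of 23.9 and pro-death genes a median of 11.3. On the log2(FPKM + 0.1) scale the medians differed by 1.08 and 1.07 in libraries a and b, a 2.10-fold difference on average. The SD over the libraries, 0.00891, describes only how alike the libraries are and not the spread among genes. The levels of the sides lay within each other, since pro-survival genes ran from 1.25 to 143 and pro-death genes from 1.90 to 66.4. Of the 20 pro-death genes, 6 stood above the pro-survival median, namely BAX, FADD, HTRA2, ENDOG, CYCS and BAD. Of the 8 pro-survival genes, 5 stood above the pro-death median, and XIAP, BIRC6 and BCL2 did not. With means over the lists the log2 difference was 0.61. With wide role lists, which place most of the 13 on a side (10 against 30 genes), the difference of medians was 0.84. MCL1 held 48.8% and 49.5% of the summed FPKM of the 8 pro-survival genes in libraries a and b.

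Within the BCL2 family the same contrast was wider. The 4 pro-survival genes had a median FPKM of 40.0 and the 7 effector and BH3-only genes a median of 8.68. The log2 difference of medians was 2.36 and 2.04 in libraries a and b (mean 2.20 ± 0.224), a 4.59-fold difference. With list means, which give BCL2 more weight, it was 1.40. Genes are not replicates, so neither contrast was tested.

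**Figure D2:**
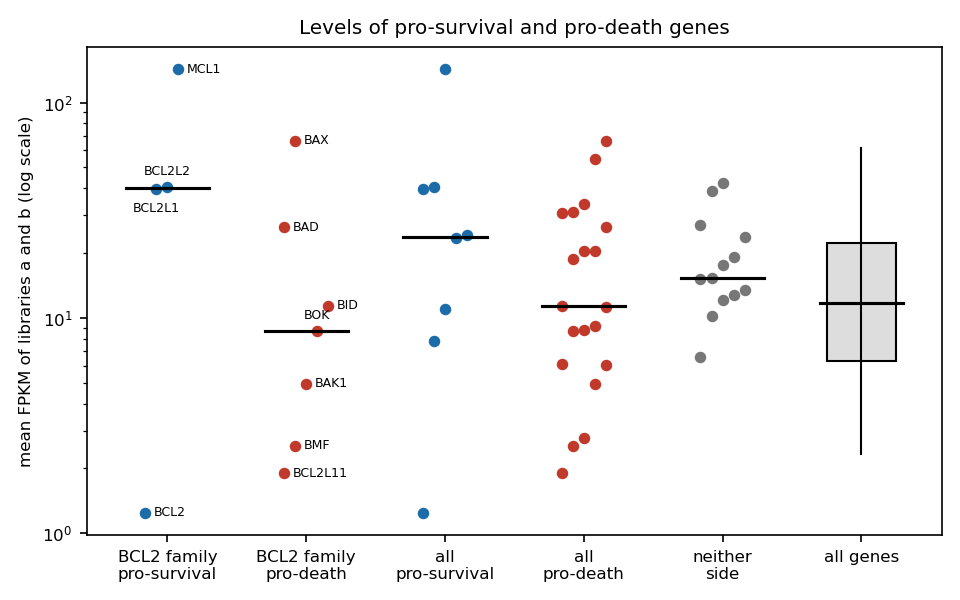
Mean FPKM of each member (points) on a log axis, with the median of each list as a bar, for the BCL2 family and for all pro-survival and pro-death genes, beside genes on neither side and all 12353 genes (box from the 25% to the 75% point, whisker from the 5% to the 95% point). The pro-survival medians are higher, at 40.0 and 23.9 against 8.68 and 11.3, while the points of both sides overlap.

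Genes whose proteins act on each other, or are close relatives, were compared within each library in 19 pairs with both values. The log2 ratio of FPKM + 0.1 had the same sign in both libraries and exceeded 2 SD in all 19, which shows only that these ratios exceeded the spread between the libraries. MCL1 exceeded BCL2L1 3.60-fold (log2 ratio 1.85 ± 0.0220) and BCL2 108-fold (6.76 ± 0.405). BAX exceeded BCL2 50.4-fold (5.66 ± 0.429), but BCL2L1 only 1.67-fold (0.74 ± 0.0454). The ratios over BCL2 depend on the pseudocount, since BCL2 is so low: with 1 in place of 0.1 the log2 ratio was 6.01 for MCL1 over BCL2 and 4.92 for BAX over BCL2. The log2 ratio of BAK1 over MCL1, which restrains it, was -4.85 ± 0.382, and that of BCL2L11 over MCL1 was -6.20 ± 0.480. The log2 ratio of BAD over BCL2L1 was smaller, at -0.59 ± 0.136.

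Inhibitors of caspases exceeded their targets in the pairs measured. CFLAR exceeded CASP8 3.98-fold (log2 ratio 1.99 ± 0.325) and XIAP exceeded CASP9 2.79-fold (1.48 ± 0.0883). The nuclease inhibitor DFFA exceeded DFFB 2.51-fold (1.33 ± 0.149). The IAP antagonists in turn stood above XIAP, HTRA2 by 4.24-fold (2.08 ± 0.0881) and DIABLO by 1.42-fold (0.51 ± 0.0588). Both antagonists overlap other genes with higher values, so their levels and these ratios are uncertain. FADD exceeded CASP8 8.93-fold (3.16 ± 0.457). The smallest ratios were DAP3 over DAP (0.38 ± 0.0509) and BIRC6 over XIAP (0.48 ± 0.104).

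**Figure D3:**
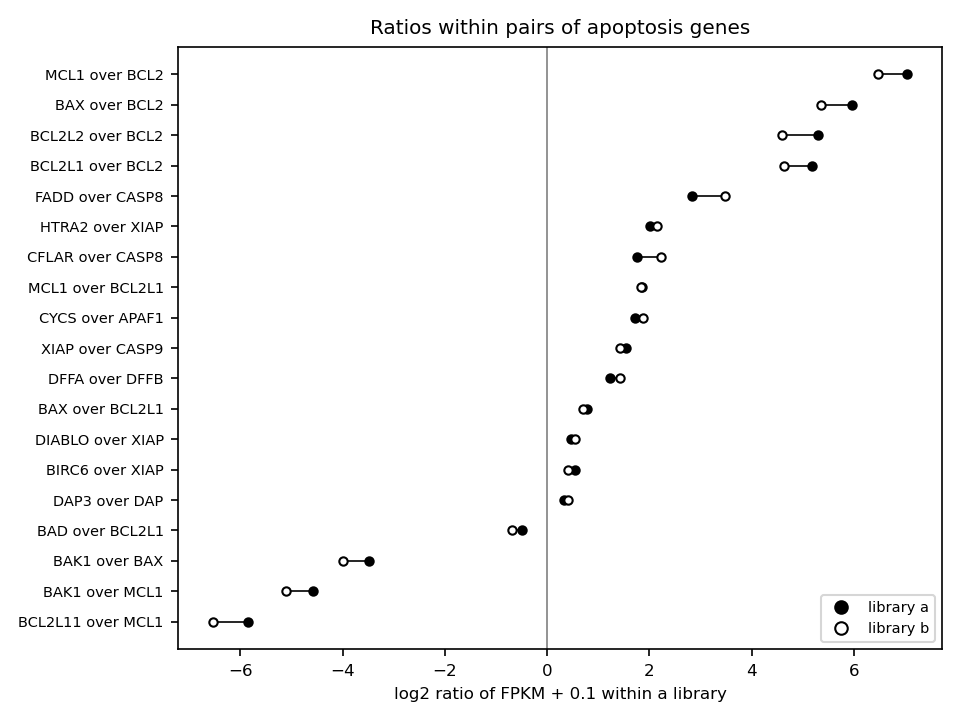
Log2 ratio of FPKM + 0.1 between the members of 19 pairs in library a (filled) and library b (open), sorted by mean. All points of a pair lie on the same side of 0, and the ratios that involve BCL2, BAK1, BCL2L11 or CASP8 vary most between the libraries.

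The replicates agreed about as closely for the apoptosis regulators as for other genes. The median member differed 1.08-fold between the libraries and the median of all genes 1.10-fold. The median log2 difference of library b over library a, less that of all genes, was 0.0015, with 21 members above 0 and 20 below. More than 1.5-fold separated the libraries in 2 of 41 members (4.88%), BCL2 and BCL2L11, against 2.4% of all genes. Both are low, and 4.84% of all genes with a mean FPKM below 10 differed as much, against 2 of 12 such members. BAK1 and CASP8 came next, with library a 1.46-fold and 1.43-fold above library b. The libraries moved in different directions for the low members, with BCL2 higher in library b and BCL2L11, BAK1 and CASP8 higher in library a.

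**Figure D4:**
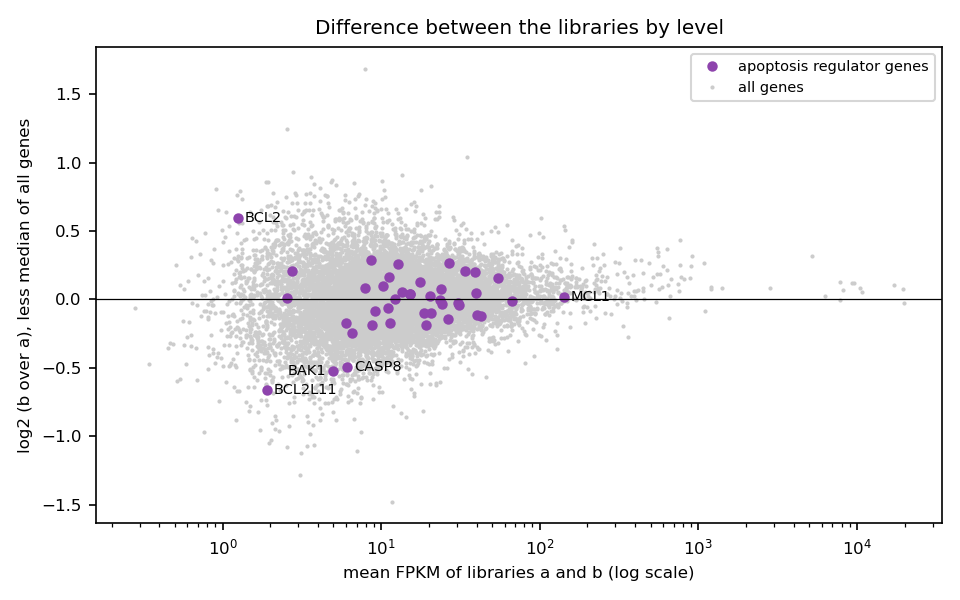
Log2 ratio of library b over library a, less the median of all genes, against mean FPKM on a log axis for the 41 members (purple) and all genes (grey). The spread widens towards low levels, where BCL2, BCL2L11, BAK1 and CASP8 lie.

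Other genes of the pathway were examined from a list of 44, of which 29 had values, with a median FPKM of 12.0 and 15 of the 29 above the median of all genes. Among BH3-only genes outside the members, PMAIP1, which encodes NOXA and binds MCL1, had 43.2 and 47.1 FPKM in libraries a and b. BBC3, which encodes PUMA, had 21.8 and 20.7, and HRK had 1.41 and 1.26. PMAIP1 thus stood above all 4 BH3-only members, and its range did not overlap theirs. BIRC5, which encodes survivin, an IAP that also acts in mitosis, had 75.5 and 67.6, above BIRC2. PEA15, whose protein binds FADD and caspase-8, had 66.4 and 68.9. Of the death receptors, TNFRSF1A had 25.5 and 23.5, the decoy receptor TNFRSF10D 26.2 and 22.5, and FAS 6.78 and 8.22.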

How the data were processed

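The authors deposited FPKM values, 1 column per library, made by them from GRO-seq reads. The submitters' processing notes name Bowtie2, HTSeq and hg19 with no version. Neither the gene length and read total behind the FPKM, nor how multiply mapped reads and strand were handled, is stated in any source used here. The columns end in a and b while the labels number the replicates, so columns were tied to the group only. No value was 0 and the lowest were 0.29 and 0.27, so a gene without a value is described only as having none. Depth is unknown: of 3520 genes over FPKM 20, the fullest bin of the ratio between the libraries (width 0.0005 in log2) held 11, so no common step could be read.

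Identifiers were paired with current symbols for 12202 of the 12353. Values were used on the FPKM scale or as log2(FPKM + 0.1) with no filter, averaged over the libraries, in Python 3.11.15 with pandas 2.3.3 and numpy 2.4.6. Lists are described by medians, counts and percentiles among all genes, with no test. These computations were tested on simulated tables with known shifts. The lists in those tables were drawn at random and were longer than the lists of members. The stability of a median over a few genes was therefore not tested. Overlapping and neighbouring genes come from RefSeq on GRCh38.p14, used for gene order only, and promoter sequences from the RefSeq table of the same build. All members and the genes of the other lists that have values could be named, in full for the highest, the lowest and the members of pairs. Some genes of the other pathway list are not reported here. The members, roles, lists and pairs were chosen with earlier results of these data known. Alternatives were a pseudocount of 1, a minimum FPKM of 1, each library alone, list means, wide role lists, members with no overlapping gene, quantile normalization and no centring.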

Additional observations from a re-analysis of the deposited data

How the results depend on the processing

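Depth is unknown and limits the low members most. The direction of both contrasts and of all 19 pairs was kept under every alternative that was run. The log2 difference of pro-survival over pro-death medians, 1.07 in the main analysis, was 1.02 with a pseudocount of 1, 1.10 with genes at FPKM 1 or more in both libraries (which leaves out BCL2), 0.61 with list means, 0.84 with wide role lists (10 against 30 genes) and 1.42 over members whose span overlaps no other gene with a value. With 3 and 7 other pathway genes added to the sides, an alternative chosen after seeing the data, it was 1.09. Leaving out a library gave 1.07 to 1.08. Within the BCL2 family the value of 2.20 became 1.40 with list means and 2.59 without overlapped members, and 2.04 to 2.36 with a library left out. The median level of the members, 3.94 on the log2 scale, was 4.02 with a pseudocount of 1 and 4.04 with the minimum of 1. It was 3.90 with list means and 3.93 to 3.95 with a library left out. Without the 11 overlapped members it was 3.65, beside 3.56 for all genes, from which overlapped genes were not removed. The count of members above the median gene was 25 of 41, 16 of 30 without overlapped members, and 25 to 26 with a library left out. The causes of these shifts were not tested. The median difference between the libraries, 0.0015, was -0.0128 with the list mean, -0.0049 after quantile normalization and -0.0141 without centring, so it has no settled sign. A pseudocount of 1 moved 8 of 19 pair ratios by more than their SD. No paired analysis was possible because the series has a single group.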
